A study of Mus musculus with 57 samples.

Results

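The genes described here encode the factors that start and extend protein synthesis on ribosomes, together with the kinases and binding proteins that control them. They were taken by symbol from an RNA sequencing table of single mouse T helper 2 (Th2) cells: every gene whose symbol begins with Eif1 to Eif6, or with Eef1 or Eef2, was a member. The rule found 61 of the 10565 genes in the table. Of these symbols, 57 are current and 4 are older names. Eif2c1, Eif2c2 and Eif2c3 are older names of Ago1, Ago2 and Ago3, the Argonaute proteins of microRNA silencing, which are no translation initiation factors, and Eif3j is now Eif3j1.

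All 56 cells belong to 1 group. They were wild-type CD4+ T cells from the spleens of C57BL/6 mice aged 8 weeks, cultured under anti-interferon gamma antibody and interleukin-4 until day 5, with interleukin-2 added on day 2, and finally restimulated by antibodies to CD3 and CD28. Cells were captured singly on a Fluidigm C1 microfluidic device. They carry numbers within 5 sets, T1 (8 cells) and T2 to T5 (12 cells each), whose meaning is not given in the labels. A further pooled sample was not analysed here.

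Translation of most messages begins when eIF4 factors bind the capped 5′ end and unwind it, while eIF2 brings the initiator tRNA and eIF3 holds the small ribosomal subunit. After start codon recognition the large subunit joins, eEF1A delivers aminoacyl-tRNAs, eEF2 moves the ribosome along, and eIF5A helps it past difficult stretches. T cells make far more protein once activated, and the transcription factor Myc is known to drive growth and ribosome production in them.

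Levels are given in TPM, transcript abundance scaled by length and to a fixed total per cell, so genes can be compared with each other. The deposited values are whole numbers that sum to 999202 to 999914 in each cell. TPM keeps no read depth, so the depth of a cell is unknown, and its nearest substitute was the number of genes at 1 TPM or more, 2679 to 8396 with a median of 4743.5. A value of 0 may stand for a failed capture, and such genes are called listed at 0. The 56 cells count as 1 sample, so spreads and correlations over them describe these libraries and carry no test. Of 7 T cell and Th2 markers, Cd3d, Cd3e, Cd2 and Gata3 were at 1 TPM or more in all 56 cells. Cd3d is a T cell receptor component and Gata3 the Th2 regulator. Cd3g and Il4 were in 54 cells each, and Cd4 was in 37, with a median of 8.5 TPM. Of markers of other cells, summed myeloid markers (here Cd68) ranged from 0 to 481 TPM with a median of 0, and summed CD8 T and NK markers (here Cd8b1) from 0 to 24 TPM. B cell markers were not analysed here.

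Unlike the rest were cells T3_2 and T3_5. The gene Mtrnr2l took 20.1% of all TPM in T3_2, against at most 10.5% for a single gene in any other cell. That cell listed 28 of the 61 factor genes at 0, against a median of 11 and a maximum of 22 in the others. T3_5 had 8396 genes at 1 TPM or more, and the next cell had 6983. Cd8b1 was detected in 1 cell only, T3_5, at 24 TPM. Values without these cells are given for some results.

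Factor genes were among the more widely detected genes. Of the 61, 15 (24.6%) were at 1 TPM or more in every cell, against 398 of 10565 genes (3.77%). This comparison was not matched for level. Among genes in at least 10 cells, 13 of 59 factor genes had a mean under 50 TPM, against 4979 of all 7871. Together the 61 factor genes made up 2.30% of TPM in the median cell, from 0.616% in T3_2 to 3.24% in T4_4. The next lowest cell, T5_4, held 1.43%. Set medians were 2.30% (T1), 2.35% (T2), 2.38% (T3), 2.64% (T4) and 2.08% (T5), and the SD over all cells was 0.461 percentage points. With Mtrnr2l left out of its total, T3_2 still held only 0.771%.

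The total was carried by elongation factors and the eIF3 scaffold. The 6 elongation genes supplied 39.1% of all factor TPM and the 13 eIF3 genes 30.3%. The 8 genes of start codon recognition and subunit joining supplied 8.32%, the 11 eIF4 genes 8.20%, the 2 eIF5A genes 7.78% and the 5 eIF2 genes 2.79%. Small parts came from the 8 kinases and eIF4E partners (1.77%), the 5 subunits of eIF2B (1.61%) and the 3 Argonautes (0.127%). The elongation share of TPM was above the eIF3 share in 40 cells and below it in 16, so the order of these groups was not the same in every cell.

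**Figure D1:**
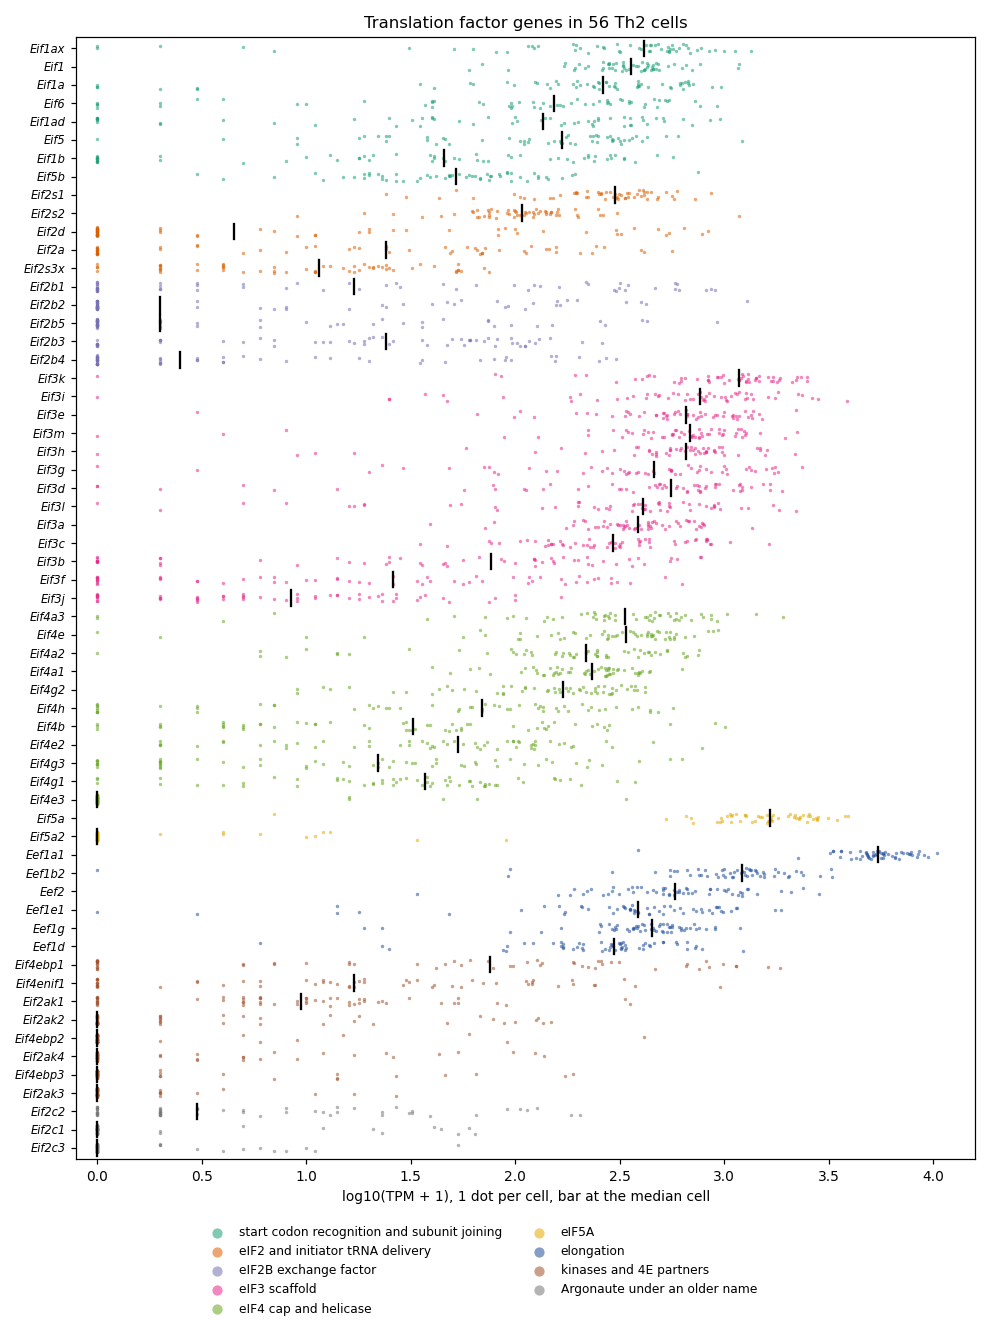
Levels of all 61 factor genes as log10(TPM + 1), with 1 dot per cell (56 cells) and a black bar at the median cell, grouped by role and ordered by mean within a group. Eef1a1 lies farthest right, with 1 cell (T3_2) at 385 TPM. Eif2ak2, Eif2ak3, Eif2ak4, Eif2c1 and Eif2c3 have medians of 0, Eif2c2 one of 2 and Eif2ak1 one of 8.5 TPM.

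Cell-to-cell variation was compared at matched level. For each gene in at least 10 cells, excess variation is log2 of the squared coefficient of variation minus the running median of 101 genes of nearest mean TPM; 0 is typical, and values past 1 or -1 were counted. Of the 61 members, 59 entered, and Eif4e3 (5 cells) and Eif4ebp2 (8 cells) did not. Below -1 lay 11 members (18.6%), against 15.1% of all 7871 genes, and above 1 lay 3 (5.08%), against 13.1%. The first share is near the background, but all 11 lay among the 49 tested members that are not kinases, 4E partners or Argonautes (22.4%). The median excess of the factor genes was -0.27, so they were on the even side of typical, but far from the 76 cytosolic ribosomal protein genes, whose median was -1.58 with 63 below -1. Just outside the lower limit was Eif4g1, at -0.996, and just inside was Eif4e, at -1.12. At the upper limit, Eif2b5 lay just inside at 1.04 and Eif3i just outside at 0.87.

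**Figure D2:**
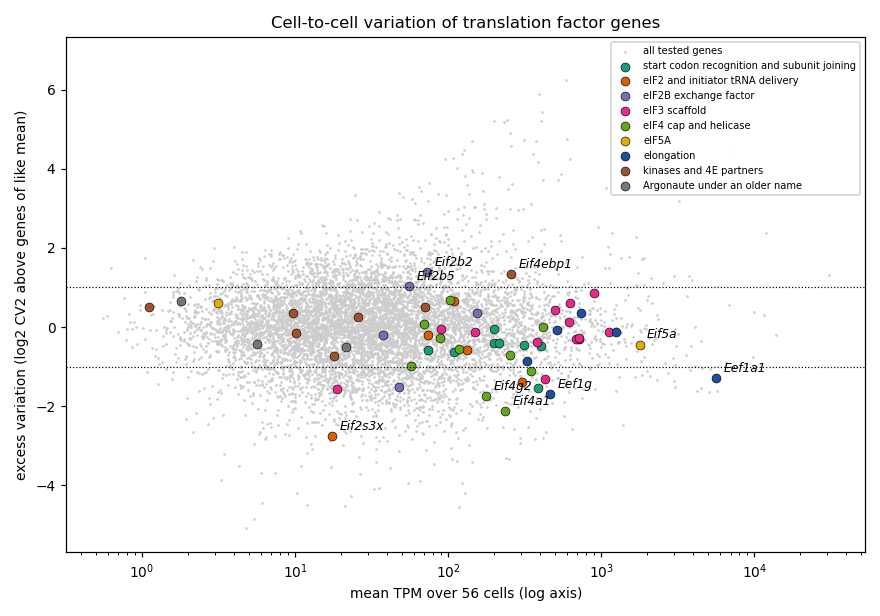
Excess variation (vertical axis, log2 units) against mean TPM over 56 cells (horizontal log axis) for all 7871 genes (grey) and 59 factor genes (coloured by role), with dotted lines at 1 and -1. Most factor genes lie between the lines, Eif2s3x is lowest at -2.77, and 3 members lie above 1.

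Among elongation genes, Eef1a1, which encodes the GTPase that delivers aminoacyl-tRNA, was the highest factor gene and ranked 13 among all genes by mean. Its lowest cell held 385 TPM, its median cell 5424 and its highest, T1_1, 10450. It was even, with a coefficient of variation of 0.327 and an excess of -1.28, for which the 50 highest genes share the running median of the 101 highest. Eef1a1 alone made up 24.6% of all factor TPM.

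Eef1b2, Eef1d and Eef1g encode subunits of the exchange factor that reloads eEF1A with GTP. Eef1b2 was listed at 0 in its lowest cell, with a median of 1212 and a highest value of 3260 TPM. Eef1g ran from 18 to 1184 TPM with a median of 450, and Eef1d from 5 to 1233 with a median of 295.5. Eef1g was more even than genes of its level (excess -1.70), while Eef1b2 was typical (-0.13). Eef1b2 was above Eef1d in 54 of 56 cells and above Eef1g in 51.

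Eef2, the translocase, had a lowest value of 33, a median of 582.5 and a highest of 2835 TPM. Its highest cell was T3_2, the cell with the least Eef1a1, and only there was Eef2 above Eef1a1. Over the 55 other cells Eef1a1 was the higher gene. Eef1e1, whose product is known mainly as a scaffold of the multi-synthetase complex, ran from 0 to 1876 TPM with a median of 385.5.

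Eif5a encodes the only protein family with the amino acid hypusine. It was second among factor genes, from 6 TPM in T3_2 to 3923 in T4_8 with a median of 1651.5. Its paralogue Eif5a2 was found in 10 cells and reached 89 TPM. Eif5a was the higher of the pair in all 56 cells, and the ratio of means was 567. Eif5a and Dhps, the enzyme that begins hypusine formation, had a Spearman rho of 0.29 over cells, which was 0.20 as a partial rho on genes detected.

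The eIF3 subunits differed in level although they form 1 complex. Eif3k was highest, from 0 to 2497 TPM with a median of 1171.5, followed by Eif3i (0 to 3884, median 766.5). Eif3m ran from 0 to 2232 TPM with a median of 685, Eif3e from 2 to 2198 with a median of 658.5, and Eif3h from 0 to 2182 with a median of 653. These genes encode parts of the body of the complex, apart from Eif3i, which belongs to a peripheral module with Eif3b and Eif3g.

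Eif3d, a cap-binding subunit, had a median of 554.5 TPM and Eif3g one of 458. Eif3l had a median of 409 TPM, and the large core subunits Eif3a and Eif3c had medians of 387 and 292.5. Eif3a was in every cell, at no less than 38 TPM, and was even for its level (excess -1.32). The low end held Eif3b (median 75.5 TPM), Eif3f (25) and the loosely attached Eif3j (7.5).

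The ratio of means was 12.5 between Eif3k and Eif3f, 2 subunits of the same octameric body, and 59.3 between Eif3k and Eif3j. All 13 subunits were at 1 TPM or more together in 33 cells, 12 in 15 cells, 11 in 7 cells and 8 in 1 cell. Near-identical sequence limits Eif3j: its paralogue Eif3j2 is at least 97% identical over 300 bases or more and it overlaps Spg11 on the other strand.

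In the eIF2 group, the α, β and γ subunits of eIF2 are encoded by Eif2s1, Eif2s2 and Eif2s3x. Eif2s1 ran from 23 to 864 TPM with a median of 300.5, and Eif2s2 from 8 to 1172 with a median of 107. Eif2s3x ran from 0 to 74 TPM with a median of 10.5. The means stood at 305, 134 and 17.4 TPM, so the γ subunit gene was 17.5 times lower than the α subunit gene, and it was below it in 55 of 56 cells. Eif2s2 and Eif2s3x each have 1 near-identical pseudogene and Eif2s1 has none. Reads of the lower genes may therefore be undercounted, which was not tested.

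Eif2s3x also had the lowest excess of all factor genes, -2.77, and it was even at a low level. Eif2s2 had an excess of -0.57 over all cells. When the highest cell of each gene was left out, which for Eif2s2 is T4_4, it was -2.65. Eif2d and Eif2a, which can bring initiator tRNA independently of eIF2, were patchy, with medians of 3.5 and 23 TPM and highest values of 839 and 564.

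Eif2b1 to Eif2b5 encode eIF2B, which reloads eIF2 with GTP and is the point where stress shuts initiation down. Eif2b1 had the highest mean, 155 TPM, with a median of 16 and a highest value of 898. Eif2b3 was even (excess -1.51, median 23 TPM). Eif2b2 (median 1, highest 1280 TPM) and Eif2b5 (median 1, highest 924) were uneven, with an excess of 1.40 and 1.04. Both passed 1 only with their highest cells, T3_6 and T3_3, and without each gene's highest cell they were 0.41 and 0.83. That setting put Eif2d (1.05) and Eif4ebp3 (1.01) above 1 instead. All 5 subunits were at 1 TPM or more together in 7 cells, and 4 in 20 cells.

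In the start codon group, Eif1ax had a median of 411 TPM (0 to 1347) and Eif1 one of 356.5 (59 to 1171). Both products scan for the start codon with the small subunit. Eif1 was even, with an excess of -1.54, but 2 of its 4 near-identical pseudogenes, Gm16378 and Gm6900, have rows of their own, so its reads may be split. Eif1a, a close relative of Eif1ax, had a median of 261 TPM.

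Eif6, which keeps ribosomal subunits apart, ran from 0 to 923 TPM with a median of 152. Eif5, the GTPase activator of eIF2, ran from 0 to 1216 with a median of 166. Eif5b, which joins the subunits, had a median of 51 TPM and its highest value, 747, in T3_2. Without each gene's highest cell its excess moved from -0.57 to -2.09. Eif1ad (median 135 TPM) and Eif1b (44.5) completed the group. Eif5b overlaps Rev1, and Eif1ad overlaps Banf1, on opposite strands. Banf1 had a mean of 983 TPM against 200 for Eif1ad, and Rev1 one of 8.43 against 74.1 for Eif5b. Whether reads of these pairs mix was not tested.

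The eIF4 genes bind the cap and open the message. Eif4a3, whose helicase is known mainly from the exon junction complex, had a mean of 419 TPM (0 to 1910, median 333.5). Eif4e, the cap-binding protein, ran from 0 to 937 TPM with a median of 338. The helicase gene Eif4a1 was in every cell, from 39 to 625 TPM with a median of 233, and its excess of -2.12 was the second lowest among factor genes. Its paralogue Eif4a2 had a similar median, 216.5 TPM, but an excess of -0.70. Eif4a1 was the higher of the pair in 30 cells and Eif4a2 in 25.

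Among scaffolds, Eif4g2, which lacks the cap-binding part, had a median of 168.5 TPM (8 to 416, excess -1.74). Eif4g1, the main scaffold, had a median of 36 TPM (0 to 373) and Eif4g3 one of 21 (0 to 628). Eif4g2 exceeded Eif4g1 in 46 cells. The accessory genes Eif4h and Eif4b had medians of 68 and 31.5 TPM, and the cap-binding relative Eif4e2 one of 52.5.

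The regulators were low or patchy. Eif4ebp1, an inhibitor that holds eIF4E when mTOR is inactive, ran from 0 to 1849 TPM with a median of 75, and it was below 10 TPM in 18 cells. It was uneven for its level (excess 1.33), and this did not rest on a single cell, since leaving out the highest cell of each gene gave 1.48. Eif4e was above Eif4ebp1 in 41 cells and below it in 14. Eif4enif1, which carries eIF4E into the nucleus, had a median of 16 TPM and its highest value, 954, in T3_2.

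The 4 eIF2 kinases respond to haem loss or mitochondrial stress (Eif2ak1), double-stranded RNA (Eif2ak2), unfolded proteins (Eif2ak3) and amino acid shortage (Eif2ak4). They were detected in 44, 26, 10 and 20 cells, at medians of 8.5, 0, 0 and 0 TPM. None was found in 4 cells, 1 in 18 cells, 2 in 21 cells, 3 in 12 cells and all 4 in 1 cell. Eif2ak1 overlaps Aimp2 on the other strand, which had a mean of 393 TPM against 25.6 for Eif2ak1. Eif4ebp3 was in 14 cells. The Argonautes Eif2c1, Eif2c2 and Eif2c3 were in 11, 42 and 12 cells.

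Co-variation among factor genes was weak. Of 1711 pairs of factor genes, 77 (4.50%) had a Spearman rho of 0.3 or more, against 3.11% of all pairs of the 7871 genes, and 654 (38.2%) were below 0, against 37.9%. For the scores below, the Argonautes and the kinases and 4E partners were set aside, which left 49 core factor genes in at least 10 cells. Their mean pair rho was 0.057, against 0.043 over all genes and 0.159 among ribosomal protein genes. Without T3_2 the factor genes (0.037) were just below all genes (0.039), with 0.147 for ribosomal protein genes. Without T3_2 and T3_5 these 3 values were 0.035, 0.030 and 0.139, so the order of factor genes and all genes turned on single cells. As partial rho on genes detected they were 0.036, 0.009 and 0.160.

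Values were also compared by level. Among the 12 factor genes with a mean of 500 TPM or more the mean pair rho was 0.087, against 0.049 for all 321 genes at that level and 0.303 for the 31 ribosomal protein genes. From 50 to 500 TPM, the values were 0.049 for factor genes and 0.046 for all genes, and below 50 TPM 0.072 and 0.047. These values take all 59 tested members; below 50 TPM the 5 core genes alone had 0.160. Without T3_2 and T3_5 the values at 500 TPM or more were 0.054 for factor genes and 0.020 for all genes.

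Members of 1 complex moved together only loosely. The mean pair rho was 0.084 over the 13 eIF3 subunits, highest for Eif3b with Eif3c (0.37) and lowest for Eif3f with Eif3m (-0.22). It was 0.21 over the 4 eEF1 genes, and 0.21 over Eif4e, Eif4g1 and Eif4a1. For the 3 eIF2 subunits it was -0.08.

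Fixed pairs gave low values too. Eef1b2 and Eef1g had a rho of 0.11 but a Pearson r of log2(TPM + 1) of 0.66. T3_2 held 0 and 22 TPM of them, and without it rho was 0.07 and r 0.47. Eef1a1 and Eef2 had a rho of -0.08. Eif4e and its inhibitor Eif4ebp1 had a rho of -0.08, the helicases Eif4a1 and Eif4a2 one of 0.17, and Eif1 and Eif1b one of 0.11. Eif2s1 and Eif2s2 had a rho of 0.07. Over all pairs the highest values were Eif6 with Eif4e (0.55) and Eif4a3 with Eif2ak4 (0.49), and the lowest was Eif4e with Eif2ak4 (-0.39). They are the extremes of 1711 pairs and cross the role groups.

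**Figure D3:**
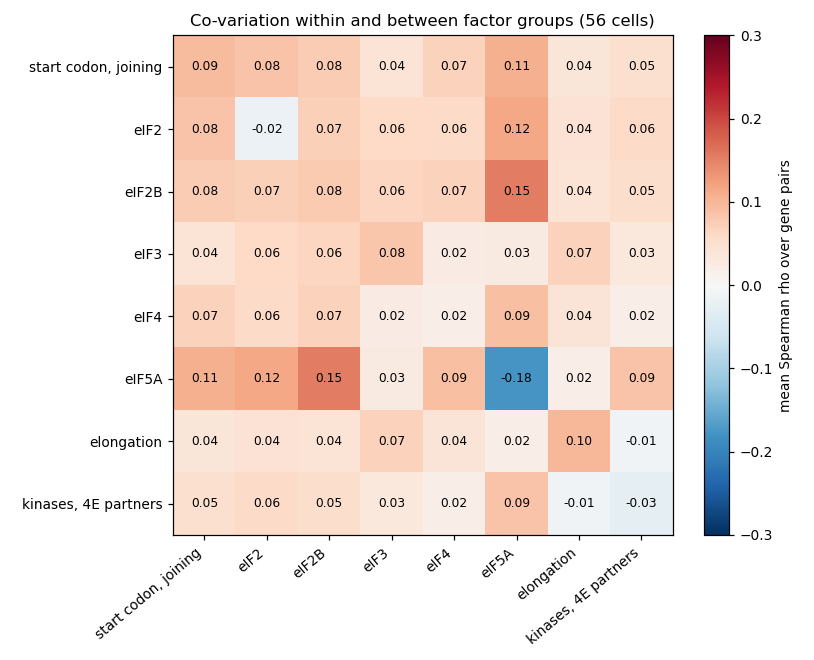
Mean Spearman rho over pairs of factor genes within a role group (diagonal) and between groups (off the diagonal), over 56 cells, with the colour scale from -0.3 to 0.3. Nearly all cells of the grid are between 0 and 0.15, and the elongation genes have a diagonal value of 0.10; the eIF5A diagonal (-0.18) is a single pair with a gene found in 10 cells.

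A factor score was computed for each cell as the mean over the 49 core genes of z-scored log2(TPM + 1). It ran from -1.99 in T3_2 to 0.54 in T1_6, with a median of 0.06, and the second lowest cell was T5_4 at -0.86. With the other core genes' score, or for genes outside the core with the whole score, 10 of 59 members had a rho of 0.3 or more, against 13.4% of all genes. The highest were Eif1ax (0.51), Eif4a2 (0.44), Eef1e1 (0.44) and Eif4ebp3 (0.43), and 8 members were below 0, the lowest being Eef2 (-0.12). As partial rho on genes detected no member reached 0.3, against 3.43% of all genes, and the highest, Eif3l, had 0.30 after rounding. The factor score itself had a rho of 0.61 with the number of genes detected. By gene, 12 of 59 members (20.3%) had a rho of 0.3 or more with genes detected, near the 21.2% of all genes. Relations of the factor score are therefore also given as partial rho.

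Myc was detected in 52 of 56 cells; the median cell held 299 TPM and the highest, T5_4, 3804. The factor score had a rho of 0.05 with Myc (partial 0.02), and from -0.26 in T5 to 0.20 in T3 within sets. Without T3_10 and T5_4, the 2 cells farthest from the median in Myc, rho was 0.07. Pearson r with log2(TPM + 1) of Myc was 0.18 over all cells and 0.25 without those 2. Of 59 members, 1 had a rho of 0.3 or more with Myc (Eif4a3, 0.32), near the 1.25% of all genes. As partial rho it was the same 1 member (0.32), against 1.28%. The lowest member was Eif4g3 (-0.30, partial -0.31), and no share of all genes was counted on that side. Factor genes known as Myc targets were spread around 0: Eif4e had -0.05, Eif4a1 0.06, Eif2s1 -0.01, Eif4g1 0.15 and Eif5a 0.05. Ncl, the nucleolar protein gene, had 0.26.

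Single cells show the same lack of order. The 4 cells with Myc listed at 0 held 1.87% (T1_2), 3.04% (T3_1), 2.79% (T3_4) and 1.57% (T3_8) of their TPM in factor genes. The cell with the most Myc, T5_4, held 1.43%, the second lowest share of all cells. These values cover most of the range over the 56 cells.

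Cycling was summarised by scores of G1/S genes and G2/M genes. The factor score had a rho of 0.27 with the first and 0.28 with the second, and both scores also follow genes detected (0.57 for G2/M). As partial rho they were 0.00 and -0.11. With the G1/S score 5 members had a rho of 0.3 or more, against 8.83% of all genes, led by Eif2b4 (0.37). With the G2/M score 5 did, against 9.74%, led by Eif2s3x (0.39) and Eif6 (0.39). Both shares (8.47%) are near the background, and as partial rho no member reached 0.3 with either score, against 3.9% of all genes for G1/S and 3.28% for G2/M.

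Cytosolic ribosomal protein genes made up 42868 to 147198 TPM, with a median of 90088. The factor share of TPM was 25% of theirs in the median cell. The 2 shares had a rho of 0.61 over cells, and 0.61 with ranks centred by set and as partial rho. Within sets rho was 0.31 (T1), 0.76 (T2), 0.27 (T3), 0.59 (T4) and 0.66 (T5). Without T3_2 and T3_5 it was 0.58, and without Eef1a1 in the factor share 0.59. Both shares are parts of 1 total, and the part of that in the rho was not tested. The factor score, which weights the core genes equally, had a lower rho with the ribosomal protein share, 0.29 (partial 0.45), and 0.13 with TPM rescaled per cell. With a score of the ribosomal protein genes it had 0.54 (partial 0.56).

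As a group, elongation genes had the highest values, but only 2 of the 6 reached 0.3 with the ribosomal protein share by gene. Below it were Eef1g (0.295), Eef1d (0.23), Eef1e1 (0.11) and Eef2 (0.09). The summed elongation share had a rho of 0.58 with the ribosomal protein share, and the eIF3 share 0.42. With the elongation score, which weights the 6 genes equally, rho was 0.52, against 0.25 for the eIF3 score, 0.11 for eIF4 and -0.01 for eIF2B. By gene, 5 of 59 members (8.47%) had a rho of 0.3 or more, against 2.03% of all genes: Eef1a1 (0.48), Eef1b2 (0.42), Eif3i (0.42), Eif3k (0.35) and Eif3l (0.30). As partial rho 6 did, with Eif2s2 added, against 2.68%. Level moved with these values: among genes at 500 TPM or more the shares were 33.3% of 12 factor genes and 16.5% of 321 genes. All genes here include the ribosomal protein genes themselves. For plain rho each was set against the share of the others, and for partial rho against the whole share, itself included. By plain rho 57.9% of these 76 genes reached 0.3, and 90.3% of the 31 at 500 TPM or more, which raises the shares of all genes. Over the 49 core genes, mean TPM and rho with the ribosomal protein share had a Spearman rho of 0.42 across genes, which are not independent.

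Ribosome biogenesis was described by a list of 24 genes that mixes nucleolar genes such as Npm1, Ncl and Nop58 with metabolic genes known as Myc targets, such as Ldha, Odc1 and Cad. The rho of its score with the factor score was 0.66, and 0.60 as partial rho. Without T3_2 and T3_5 it was 0.64, or 0.60 with both scores recomputed in the other cells. Within sets it ran from 0.05 in T1 to 0.85 in T5. T3_2 and T5_4 were lowest in both scores. With the biogenesis score 13 of 59 members (22%) had a rho of 0.3 or more, against 8.22% of all genes, and as partial rho 11 did, against 4.17%. Highest were Eif4a1 (0.57), Eef1e1 (0.51), Eif2b1 (0.50), Eif4a2 (0.43), Eif6 (0.42), Eif1a (0.41) and Eif1ad (0.40). Eef1a1 had 0.02 and Eif3k -0.02. Eif3i also passed 0.3 with the ribosomal protein share, which is 1 of the 5 members there (20%) and 1 of the 13 here (7.69%). As partial rho Eif3i and Eif2s2 passed both, which is 33.3% of 6 and 18.2% of 11. The biogenesis score, its Myc target genes included, had a rho of 0.10 with Myc.

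**Figure D4:**
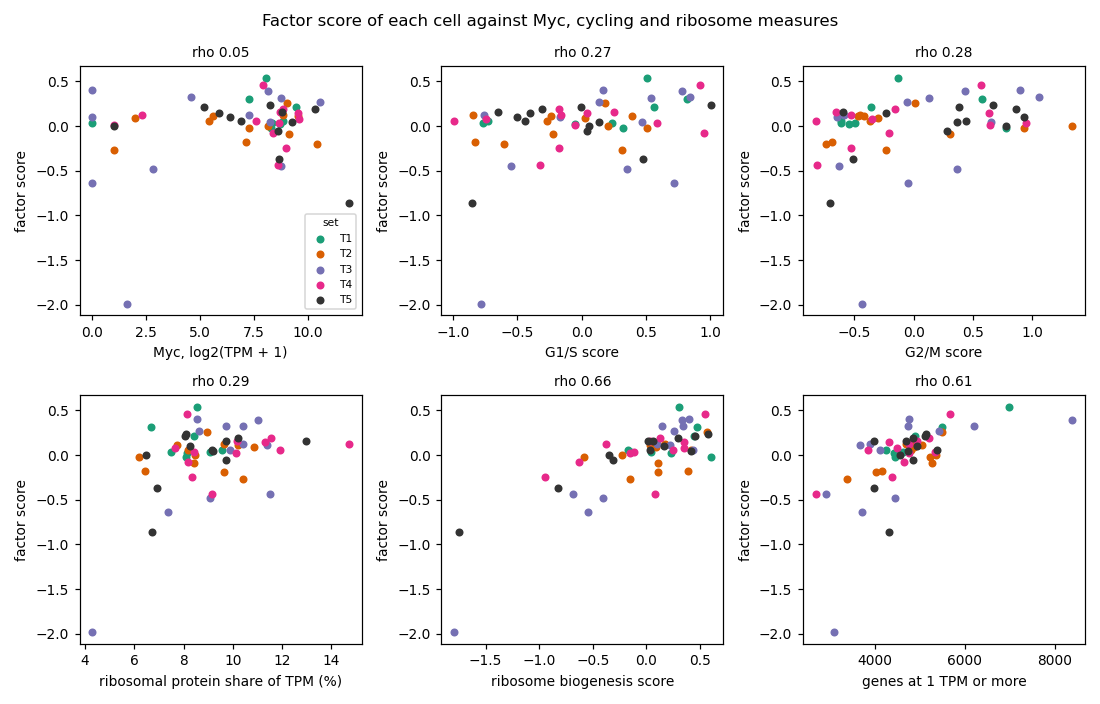
Factor score of each of 56 cells (vertical axis, mean z score) against Myc, the G1/S and G2/M scores, the ribosomal protein share of TPM, the ribosome biogenesis score and the number of genes detected, coloured by set. The biogenesis panel (rho 0.66) and the genes detected panel (rho 0.61) show a slope, the Myc panel (rho 0.05) does not, and T3_2 is the lowest point in each.

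**Figure D5:**
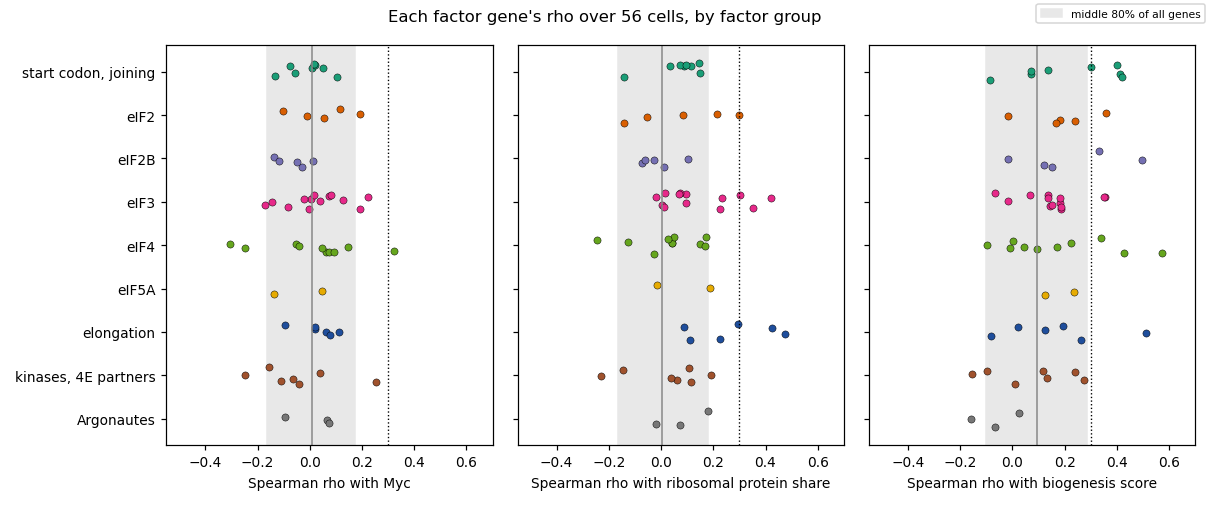
Spearman rho over 56 cells of each of 59 factor genes (dots, by role group) with Myc, the ribosomal protein share and the biogenesis score; the grey band spans all genes apart from the tenth at either end, the grey line their median, and the dotted line marks 0.3. In the middle panel Eef1a1 (0.48) and Eef1b2 (0.42) lie past the dotted line while Eef2 and Eef1e1 lie inside the band, and genes past 0.3 in the right panel come from several groups.

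Promoter sequence was read because the E-box CACGTG, a binding motif of Myc with its partner Max, is known from genes of this class. RefSeq windows of GRCm38.p6, from 250 bases before to 50 after an annotated start, were found for 48 of the 61 members. The motif, which reads the same on both strands, was in the windows of 11 members (22.9%), against 8.09% of all 27025 genes in that table, 13% of 5688 genes tested for variation and 10.7% of the ribosomal protein genes. It was in 4 of 9 eIF4 genes and 3 of 10 eIF3 genes with a window, and in none of the eIF2, eIF2B or kinase genes. A match of letters is a description and no binding was measured. The windows of 60 bases around the motif (capitals) are shown for Eif3k, which leads eIF3 in level, for the translocase gene Eef2 and for genes named above with Myc, each 5′ to 3′ on the gene's strand.
Eif4a1, chr11:69672580-69672639, minus strand: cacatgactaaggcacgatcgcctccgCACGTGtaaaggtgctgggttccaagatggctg
Eif4e, chr3:138527018-138527077, plus strand: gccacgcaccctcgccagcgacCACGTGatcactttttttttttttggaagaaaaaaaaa
Eif4g1, chr16:20672646-20672705, plus strand: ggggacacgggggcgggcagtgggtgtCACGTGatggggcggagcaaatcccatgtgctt
Eif5a, chr11:69921428-69921487, minus strand: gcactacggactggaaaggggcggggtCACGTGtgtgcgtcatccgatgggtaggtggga
Eif3k, chr7:28981900-28981959, minus strand: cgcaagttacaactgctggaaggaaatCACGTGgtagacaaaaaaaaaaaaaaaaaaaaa
Eef2, chr10:81176561-81176620, plus strand: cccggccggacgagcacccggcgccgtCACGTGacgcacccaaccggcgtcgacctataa
The rho with Myc of these genes ran from -0.09 (Eef2) to 0.15 (Eif4g1), none of them reaching 0.3.

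Ribosomal protein messages and some factor messages are known to begin with a C followed by a run of C and T, the tract through which mTOR controls their translation. A C followed by at least 4 C or T, beginning within 5 bases of an annotated start on the gene's strand, was found in 13 of 48 members (27.1%), against 21.2% of all genes and 48.2% of the ribosomal protein genes. The share of factor genes is near that of all genes. Only 48.2% of ribosomal protein genes had it, though their messages are known for the tract. A scan of annotated starts can therefore miss it, and a member without a match may still carry it. The 30 bases around the start are shown, with the tract in capitals, for the highest factor gene, for the members with the longest tracts (Eif3f and Eif2s3x) and for Eif3l, named above with the ribosomal protein share.
Eef1a1, chr9:78481710-78481739, minus strand: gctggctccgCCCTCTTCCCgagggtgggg
Eif3f, chr7:108934400-108934429, plus strand: tctgttctaggCTCTCTCTCTTTCTCggca
Eif3l, chr15:79075208-79075237, plus strand: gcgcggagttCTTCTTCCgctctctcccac
Eif2s3x, chrX:94212637-94212666, minus strand: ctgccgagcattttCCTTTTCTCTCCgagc
The rho with the ribosomal protein share was 0.48 for Eef1a1, 0.30 for Eif3l, 0.23 for Eif3f and -0.14 for Eif2s3x, so these genes were spread over the range of the factor genes.

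Other parts of the translation pathway were described by lists. Among 29 tested factors outside the symbol rule, 6 had a rho of 0.3 or more with the factor score, against 13.4% of all genes, with a median of 0.19. As partial rho 2 did, against 3.43%, with a median of 0.09. The 6 include Pabpc1, the poly(A)-binding protein (mean 743 TPM, rho 0.35), and Abce1, which recycles ribosomes (0.37). Tpt1, a growth-related translation protein, had a mean of 310 TPM and a rho of 0.10, and Aimp2, a synthetase scaffold, had 393 TPM and 0.12. Among 20 tRNA synthetases 1 passed, also as partial rho: Kars, the lysine enzyme (mean 692 TPM, rho 0.37, partial 0.39). Nars (392 TPM) had -0.08 and Eprs (325 TPM) had -0.05.

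The stress pathway that eIF2 kinases switch on was described by its target genes. None of 15 tested genes reached 0.3 with the factor score, against 13.4% of all genes. Their median was 0.10, a little under the 0.15 of all genes. The target genes varied widely, with 10 of 15 above an excess of 1, against 13.1% of all genes. Atf4, the pathway's transcription factor, was in every cell, from 2 to 2272 TPM with a median of 319, and its rho with Eif2ak4 was -0.16. Mthfd2 and Asns, enzymes induced by Atf4, had means of 334 and 302 TPM and excess values of 1.20 and 1.24.

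Of the 24 biogenesis genes, 10 had a rho of 0.3 or more with the factor score (11 as partial rho), and of 76 ribosomal protein genes 19 did (23 as partial rho), against 13.4% (3.43%) of all genes. Npm1, a nucleolar chaperone (mean 3562 TPM), had 0.50. Among 4261 other genes in at least 28 cells, those with the highest rho were the small nucleolar RNA Snora68 (0.56), G3bp1, a stress granule protein gene (0.55), Celf2 (0.54), Gja1 (0.54), Cops2 (0.53), Kcmf1 (0.53), Rpl17 (0.52), Psmd5 (0.51), Psmd9 (0.51), Npm1 (0.50), Ddx52 (0.50) and Eed (0.50). Lowest were Ears2 (-0.33), Kctd11 (-0.33), Pex3 (-0.30), Taf15 (-0.27), Fxyd5 (-0.27) and Klf13 (-0.27). These are the extremes of many genes over 56 cells that share their libraries, and 2 of the first 100 were ribosomal protein genes, near their 1.76% share of the 4261 genes. As partial rho the first were G3bp1 (0.53), Dkc1 (0.50), a nucleolar gene, and the ribosomal protein genes Rps3a (0.50) and Rpl18 (0.50).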

How the data were processed

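The authors deposited whole-number scores, TPM rounded by them, for 56 single cells. The tools FastQC, Bowtie 0.12.2 and Cufflinks and the build mm9 are named per the submitters' processing notes, without the role of each, and strand use is not given in the sources at hand. Analysis used Python 3.11.15, numpy 2.4.6, pandas 2.3.3 and scipy 1.17.1, and the variation and correlation steps were tested on simulated data. A gene was detected at 1 TPM, log values had a pseudocount of 1, and partial rho removed ranks of genes detected. Members, role groups, lists and pairs were chosen with earlier results of these data known. Named genes were, per role group, the highest mean and the extremes of excess and of rho with the factor score, every member at 500 TPM or more or with excess above 1, fixed pairs, and the 12 highest and 6 lowest other genes; further members were named to complete their complex. Near-identical copies (at least 97% over 300 bases) were sought among GENCODE transcripts for all members and found, overlapping genes included, for 15 of 61. Pseudogenes without a row of their own were found for Eef1g (3) and Eef1a1 (2). Eif2s2, Eif2s3x, Eif3m, Eif4a1, Eif4a2, Eif4e and Eif5a had 1 each. Levels of these genes may be affected, which was not tested. Columns of per-sample values left unused numbered 0. Alternatives covered the filter, pseudocount, running median, scaling, ranks, and leaving out cells or sets.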

Additional observations from a re-analysis of the deposited data

How the results depend on the processing

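No paired analysis was possible because the cells form 1 group and replicate numbers were given in accession order. The count of 11 members below an excess of -1 (10 to 14) stayed within 1.5 times, and the rho values of 0.61 with genes detected (0.52 to 0.70) and between the 2 TPM shares (0.57 to 0.64) within a tolerance of 0.1, under every alternative run. The mean pair rho of 0.057 is itself under that tolerance: it was 0.03 without set T3, 0.037 without T3_2 and 0.12 as Pearson r. Members above an excess of 1 numbered 5 of 61 with a filter of 1 cell, against 14.8% of all genes. They numbered 6 of 55 with TPM rescaled per cell, against 15.3%. Over the settings for excess, 54 to 61 members were tested, and 13.7% to 15.7% of all genes lay below -1. The median excess was -0.45 with TPM rescaled per cell and -0.15 without set T3. As partial rho on genes detected, the factor score had 0.0032 with G1/S, -0.11 with G2/M and 0.45 with the ribosomal protein share (0.27, 0.28 and 0.29 as plain rho). As Pearson r it had 0.18 with Myc, 0.40 with the ribosomal protein share and 0.80 with biogenesis (plain rho 0.05, 0.29 and 0.66). With all members in the score, rho with G2/M was 0.40. With rescaled TPM, rho was 0.13 with the ribosomal protein share and 0.53 with biogenesis. The factor share was 1.74% without Eef1a1. The cause of these moves was not tested. A partial rho with genes detected itself is undefined and was not run. Leaving out T3_2 and T3_5 together was chosen after seeing the data. The unknown depth limits every statement on genes at low TPM.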
